A study of Sus scrofa with 18 samples.

Results

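Solute carriers are membrane proteins that move amino acids, sugars, ions, metals and metabolites across the cell surface or the membranes of organelles, and their genes carry the symbol prefix SLC. The retina relies on them throughout: carriers of the SLC1 family clear the glutamate that photoreceptors and bipolar cells release, GLUT1 brings in glucose, monocarboxylate carriers pass lactate between cells, and carriers of the SLC25 family link the cytosol to the mitochondria that are packed into photoreceptor inner segments. Most of these proteins spend either an ion gradient or the gradient of the solute itself. Those that spend the sodium gradient depend on the sodium and potassium pump.

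The members were all genes on the array whose single symbol in the platform annotation has the form SLC, family number, letter and member number, each taken at its brightest probe set. There were 120 such genes, with 176 probe sets, among 6765 genes that had a probe set of 1 symbol. Of the 120, 94 were above the level filter and were tested, and 26 were dim. The pattern of the symbol also takes in 3 genes that do not encode a carrier, namely SLC9A3R1 and SLC9A3R2, which encode scaffold proteins, and SLC2A4RG, which encodes a transcription factor, so 117 members are carriers. By substrate, fixed by family, the 120 genes fell into 19 for amino acids and peptides, 16 for glucose, related sugars or lactate, 13 for inorganic ions, 13 for metal ions, 21 of the mitochondrial carrier family, 8 of the nucleotide sugar family, 27 for other organic substrates and the 3 that are no carriers.

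The values come from retinas of male domestic piglets, Landrace crossed with Large White, collected at postnatal day 38 and hybridised to Affymetrix pig arrays. Both groups were enrolled at an age of 3 days and fed pig milk replacer. The control group (9 arrays) received it at the basal level, and the sialyllactose group (9 arrays) received it with sialyllactose, a milk sugar in which sialic acid is joined to lactose. The comparison asks which transcripts of the retina differ when the milk holds more of this sugar. The labels number the replicates of a group and do not state in words that each came from its own piglet, so the p-values measure the spread between these samples.

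The table held 24123 probe sets, of which 16799 were tested, and correlations between arrays over these lay between 0.981 and 0.992. Retinal identity was visible in markers that were named on the array: the rod arrestin SAG had a mean log2 signal of 10.6, the cone arrestin ARR3 9.63 and GLUL, the glutamine synthetase of Mueller glia, 10.5. Of the markers of other tissue, 5 of 8 muscle genes and 2 of 4 red cell genes were under the level filter. The mean signal of the 3 tested muscle genes spanned 3.48 to 3.85 in control and 3.55 to 3.69 with sialyllactose. That of the 2 tested red cell genes spanned 4.03 to 4.17 and 3.96 to 4.23. These means join unlike genes: DES was bright at 7.02, with MYH7 at 1.81 and TNNC2 at 2.07. Of the red cell genes HBB was at 5.86 and HBM at 2.31. Of 6 pigment epithelium genes 5 were tested, TTR among them at 6.58, and their mean signal spanned 3.45 to 4.56 in control and 3.77 to 4.51 with sialyllactose. The retina is a mixture of cell types, and in a whole tissue fewer cells of a type and less RNA per cell cannot be told apart.

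Control replicate 2 stood apart from the other arrays. It held the highest or the lowest of the 18 values in 29 of the 94 tested solute carrier genes (30.9%), against 5 to 15 genes for the other arrays. The same array held the extreme value in 30.3% of all tested probe sets, so its distance was not particular to these genes. Its mean correlation with the other arrays was 0.983, while that of the other arrays was 0.988 or higher. Among solute carriers it was highest in 15, such as SLC25A30, SLC35F6, SLC4A4 and SLC25A20, and lowest in 14, such as SLC3A1, SLC1A2, SLC38A1 and SLC1A5. Its marker scores were the highest of the 18 arrays for the 3 astrocyte genes, and for the 1 bipolar and the 1 horizontal cell gene, and next to lowest for the 2 rod genes, and the part these play in its carrier values was not tested. Without this array the diet difference of 17 of the 39 named genes moved by over 1.5 times or turned in sign, and leaving out some single array did so for 32. None passed the test with or without it, and the values without control replicate 2 are given where a gene's description turns on it.

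**Figure D1:**
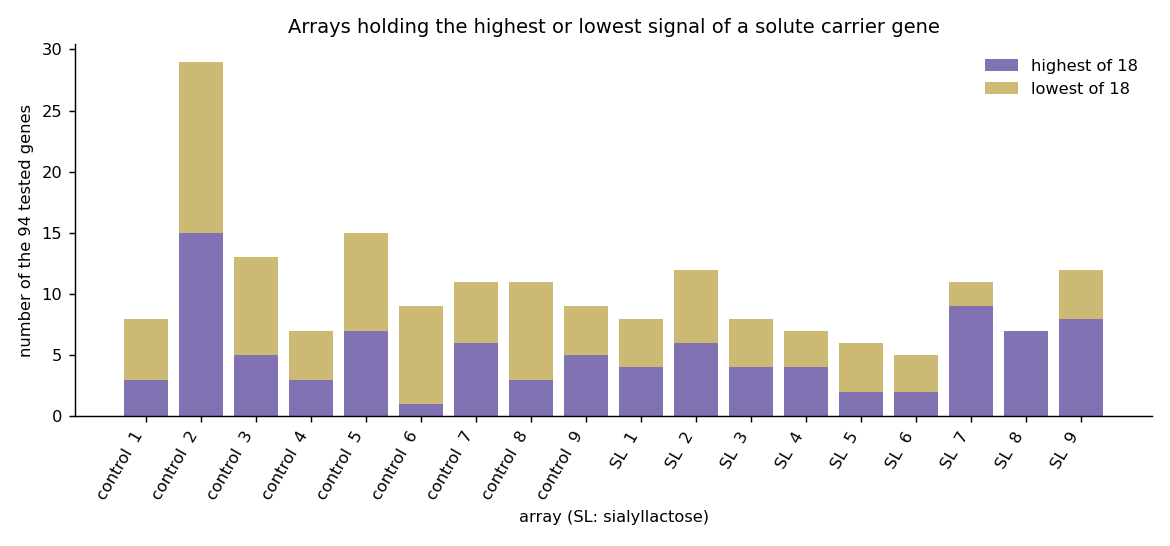
Number of the 94 tested solute carrier genes (vertical axis) in which each of the 18 arrays (horizontal axis) held the highest (purple) or the lowest (ochre) log2 signal. Control replicate 2 was extreme in 29 genes, more than the 15 of control replicate 5, the next array.

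The first question was at what level the carriers were measured. Levels are log2 signals, which also depend on the probes, so each is placed by its percentile among the 16799 tested probe sets and not ranked against other genes. The brightest part of the array held some of the inner mitochondrial membrane carriers. SLC25A6, SLC25A5 and SLC25A4, which exchange ADP for ATP, had mean signals over 18 arrays of 9.17, 8.81 and 7.73 (percentiles 99.4, 99.0 and 97.1). SLC25A3, which brings phosphate into mitochondria, had 8.89 (percentile 99.2). The 3 ADP and ATP carriers are close paralogs, and probes of near-identical genes can share target, so their separate levels are uncertain. Over the 20 tested genes of the mitochondrial carrier family the median percentile was 55.6, and 10 of 20 lay above the median level of all tested probe sets.

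Of the amino acid carriers, SLC38A1, which takes up glutamine with sodium, had a mean signal of 8.69 (percentile 98.9). SLC1A2, the glutamate transporter GLT-1, had 6.78 (percentile 92.9), SLC1A3, the glutamate and aspartate transporter of Mueller glia, 5.03 (percentile 71.5), and SLC1A1, a glutamate and cysteine transporter of neurons, 4.01 (percentile 52.6). SLC3A1, a heavy chain best known for its part in cystine uptake by the kidney, had 6.70 (percentile 92.4), while SLC7A9, the light chain with which it forms that transporter, was under the level filter. SLC3A2, the heavy chain that carries the SLC7 amino acid exchangers to the surface, had 2.95 (percentile 33.3). Over the 14 tested genes of this group the median percentile was 66.4.

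Glucose entry was represented by SLC2A1, which encodes GLUT1, the main glucose transporter of retinal cells and of the barrier vessels, at 7.20 (percentile 95.1), and by SLC2A3, the neuronal transporter GLUT3, at 5.03 (percentile 71.4). SLC37A4, which carries glucose 6-phosphate into the endoplasmic reticulum, had 5.45 (percentile 78.4). SLC5A4, of the sodium and glucose cotransporter family, had 4.75, and SLC16A3, the lactate exporter MCT4, 2.57 (percentile 26.7). Over the 13 tested genes of the group the median percentile was 25.4, so most of its sugar carriers were measured in the lower part of the array.

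Ion carriers included SLC26A11, an anion and sulfate transporter, at 5.25, SLC4A4, the sodium bicarbonate cotransporter NBCe1, at 4.12, and SLC4A2, a chloride and bicarbonate exchanger, at 3.50. Metal carriers included SLC39A7, which releases zinc from the endoplasmic reticulum, at 5.42, SLC31A2, a copper transporter of internal membranes, at 5.34, and SLC11A2, the iron transporter DMT1, at 4.44. In the SLC35 family SLC35B1, a nucleotide transporter of the endoplasmic reticulum, had 5.55, SLC35C2 4.09 and SLC35B3, which carries the sulfate donor PAPS into the Golgi, 3.89. Among other organic substrates SLC35F5, whose substrate is not settled, had 5.17, SLC6A8, the creatine transporter, 4.83 and SLC33A1, which moves acetyl-CoA into the endoplasmic reticulum, 4.60. The scaffold genes SLC9A3R1 and SLC9A3R2 had 4.39 and 2.97, and SLC2A4RG 2.66.

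The 26 dim genes had mean signals of 0.628 to 1.44 and were left out of the tests. They were SLC15A1, SLC36A2, SLC6A14, SLC7A7 and SLC7A9 for amino acids and peptides, SLC2A2, SLC2A12 and SLC5A1 for sugars, SLC26A3, SLC34A2, SLC5A5, SLC8A1 and SLC9A4 for ions, SLC11A1 for metals, and SLC25A51 of the mitochondrial carriers. The rest were SLC35A3, SLC35D2, SLC10A1, SLC17A1, SLC22A2, SLC22A3, SLC23A1, SLC23A2, SLC28A1, SLC28A3 and SLC46A2. A dim signal does not show that a transcript was absent, since these values carry no detection call. Of 35 key carriers of the retina on a separate list, 15 could be named and all 15 were tested. The remaining 20 are not analysed here, among them SLC35A1 and SLC17A5, the carriers of CMP-sialic acid and of free sialic acid.

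The second question was whether the diets differed. None of the 94 genes passed, and the percentage of all 16799 probe sets that passed was 0.00 (limma, Benjamini-Hochberg adjusted p under 0.05). At an unadjusted p under 0.05 there were 2 of 94, SLC1A5 and SLC9A3, both with higher means with sialyllactose, whereas 6.30% of all tested probe sets were past that mark, 2.94% higher and 3.36% lower. In every one of the 94 genes the diets overlapped. The share of all tested probe sets with overlap is not given here, so this is not a trait particular to these genes. Leaving out single arrays moved the count of 2 to 3 (each of control replicates 1, 2, 4 and 7 and sialyllactose replicate 2). It was 4 without each of control replicates 3, 5, 6 and 9 and of sialyllactose replicates 5, 6 and 8. It was 5 without each of sialyllactose replicates 1 and 9, and 1 without sialyllactose replicate 4. SLC1A5 was among the genes counted in every one of these fits. The share of all probe sets at that mark in these fits is not given here. By the exact rank-sum test 4 genes had an unadjusted p under 0.05, where 5.32% of all probe sets did, and 0 passed once adjusted.

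By direction alone, 56 of the 94 had higher and 38 lower means with sialyllactose, with a median difference of 0.02 on the log2 scale, where 46.6% of all tested probe sets had higher means. With arrays centred on their medians the 94 genes split into 61 higher and 33 lower, while 55.8% of all probe sets were then higher. The split moved with level. Among the dimmest of 3 equal bins of the array by signal 26 of 35 members were higher (all probe sets 56.3%), in the middle bin 19 of 35 (44.1%) and in the brightest bin 11 of 24 (39.4%). Every one of the 94 genes had a 95% interval that stayed inside 1.5-fold up or down, and for 86 it stayed inside 1.25-fold.

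**Figure D2:**
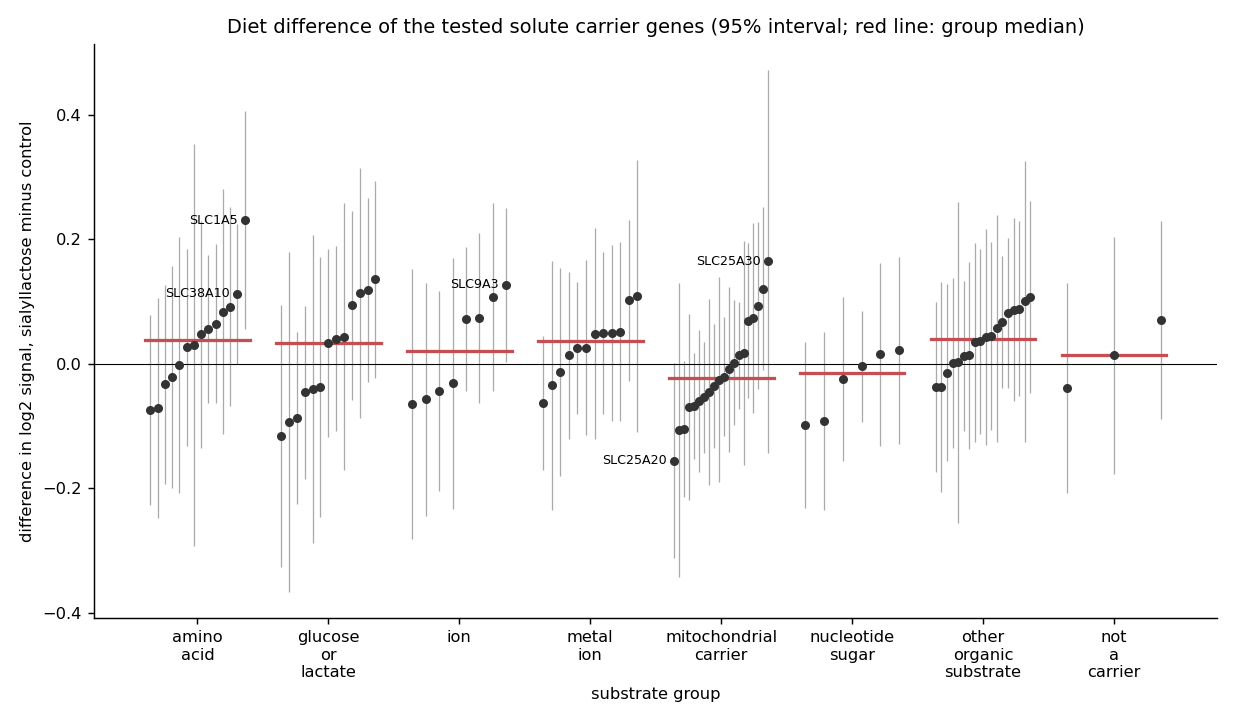
Difference in mean log2 signal, sialyllactose minus control (vertical axis), of the 94 tested genes by substrate group (horizontal axis), with 95% intervals from limma as grey lines and the group median as a red line. All intervals but those of SLC1A5 and SLC9A3 hold 0, and the group medians lie between -0.02 and 0.04, that of the nucleotide sugar group turning to 0.003 with arrays centred on their medians.

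SLC1A5, which exchanges glutamine and other neutral amino acids across the cell surface, had the smallest p of the members. Its log2 signals had a lowest value of 3.51, a median of 3.77 and a highest value of 3.94 in control, and 3.71, 3.96 and 4.30 with sialyllactose. The groups overlapped, with 5 arrays of the sialyllactose group above every control array and 7 of 9 above the control median. The means were 3.75 ± 0.16 and 3.98 ± 0.21 (SD, n = 9 each). The difference was 0.23 (95% interval 0.06 to 0.41), with a limma adjusted p of 0.753 and an unadjusted p of 0.0120. Over 27 fits, the reported one and its alternatives with leaving out each array among them, its difference ran from 0.19 to 0.26, its unadjusted p from 0.00462 to 0.0282 and its adjusted p from 0.57 to 0.883. Without control replicate 2, its lowest array, the difference was 0.20 (95% interval 0.03 to 0.37, limma adjusted p = 0.743). SLC1A5 had 1 tested probe set, so no other probe set bears on it.

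The other amino acid carriers varied around no difference. Of the 14 tested, 9 had higher and 5 lower means with sialyllactose, with a median of 0.04 that was 0.01 without control replicate 2. SLC38A10 is a less studied member of the glutamine carrier family. Its lowest, median and highest signals were 4.25, 4.42 and 4.49 in control and 4.39, 4.46 and 4.72 with sialyllactose. The highest 4 of its values were all from the sialyllactose group, yet the others mixed (difference 0.11, 95% interval -0.0001 to 0.23, limma adjusted p = 0.779). The 3 glutamate transporters SLC1A2, SLC1A3 and SLC1A1 differed by 0.05 (95% interval -0.14 to 0.23), -0.0014 (-0.21 to 0.20) and -0.07 (-0.25 to 0.11). The direction of SLC1A2 turned to -0.01 without control replicate 2, its lowest array. That of SLC1A3 turned to 0.02 with either other scaling. Beside SLC1A3, 7 of the 9 tested Mueller glia markers had lower means with sialyllactose, and the mean signal of the list spanned 6.70 to 7.002 in control and 6.60 to 6.92 with sialyllactose. The part of this in the SLC1A3 values was not tested.

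SLC38A1 is measured by 3 probe sets that moved together across arrays and differed in sign between the diets. Its brightest ranged from 8.42 to 8.84 in control (median 8.64) and from 8.57 to 8.84 with sialyllactose (median 8.73), a difference of 0.06 (95% interval -0.06 to 0.18) that was 0.03 without control replicate 2, its lowest array. The dimmer ones differed by -0.07 and -0.12. Over the 18 arrays, as deviations from diet means, they correlated with the brightest at Pearson r = 0.62 and 0.754 (Spearman rho 0.709 and 0.732, permutation p = 0.0063 and 0.00043 for r). Of the 27 members with more than 1 tested probe set, 11 had probe sets of both signs. Dimmer probe sets did not always move with the brightest. Pearson r was negative in SLC1A1 (-0.316), SLC11A2 (-0.28) and SLC35C2 (-0.024). It was of mixed sign in SLC35F5 (-0.538 and 0.0451) and SLC33A1 (0.494 and -0.372). For SLC26A11, SLC31A2 and SLC25A3 it was 0.365, 0.613 and 0.319. Values for SLC37A4, SLC3A1 and SLC35F6 are given with those genes. SLC3A2 had a difference of 0.09 (95% interval -0.07 to 0.25) that was 0.03 without control replicate 7.

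In glucose and lactate transport the 13 tested genes split into 7 higher and 6 lower. SLC2A1 had a lowest, median and highest signal of 6.93, 7.24 and 7.37 in control and 7.01, 7.22 and 7.48 with sialyllactose. The groups covered nearly the same range, and the difference was 0.04 (95% interval -0.11 to 0.19, limma adjusted p = 0.954). It was 0.0086 without control replicate 5 and 0.02 without control replicate 2. SLC2A3 had 4.83, 5.06 and 5.33 in control and 4.83, 4.95 and 5.18 with sialyllactose, and 6 of 9 sialyllactose arrays lay below the control median (difference -0.09, 95% interval -0.23 to 0.05). For SLC16A3 the difference was -0.04 with a wide interval of -0.29 to 0.21, and it was 0.03 without control replicate 9. SLC37A4 differed by -0.04 in its brightest and -0.05 in its other tested probe set, and the 2 correlated across arrays (Pearson r = 0.833, Spearman rho 0.674, permutation p = 3e-05 for r). The group median of 0.03 was -0.01 without sialyllactose replicate 3 and -0.04 with the 50% filter on dim probe sets.

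The 8 tested ion carriers split into 4 higher and 4 lower. SLC9A3, the sodium and proton exchanger NHE3 of gut and kidney, lay near the floor of the array (percentile 2.75). Its lowest, median and highest signals were 1.31, 1.54 and 1.75 in control and 1.48, 1.64 and 1.79 with sialyllactose, so the groups overlapped over most of their range. The difference was 0.13 (95% interval 0.003 to 0.25, limma adjusted p = 0.773, unadjusted p = 0.0445). Over its fits the unadjusted p of SLC9A3 ran from 0.00857 to 0.105 and its adjusted p from 0.662 to 0.883, and without control replicate 2 the former was 0.0722. SLC4A4 differed by -0.06 (95% interval -0.24 to 0.13), and by -0.0058 without control replicate 2, its highest array. SLC4A2 was measured at 3.47 ± 0.13 and 3.54 ± 0.09 and SLC26A11 at 5.28 ± 0.25 and 5.22 ± 0.23 (SD, n = 9 each).

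Of 12 tested metal carriers 9 had higher and 3 lower means, with a median of 0.04. SLC31A2 had means of 5.29 ± 0.19 and 5.40 ± 0.29 (SD, n = 9 each), the second with sialyllactose. Its difference of 0.11 (95% interval -0.11 to 0.33) was 0.03 without sialyllactose replicate 9, its highest array at 6.05, and its other tested probe set differed by -0.02. SLC11A2 differed by -0.06 (95% interval -0.17 to 0.05) and SLC39A7 by 0.03 (-0.08 to 0.13).

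Of the 20 tested genes of the mitochondrial carrier family 12 had lower and 8 higher means with sialyllactose, where 46.6% of all tested probe sets, and 39.4% of those in the brightest bin, were higher. The median difference of the family was -0.02, which was -0.005 with arrays centred on their medians and -0.01 with quantile normalization applied again. SLC25A6 had a lowest, median and highest signal of 9.13, 9.21 and 9.32 in control and 9.08, 9.12 and 9.22 with sialyllactose. In this gene 8 of 9 sialyllactose arrays lay below the control median, although the shift was small and the ranges overlapped (difference -0.07, 95% interval -0.15 to 0.02, limma adjusted p = 0.822). SLC25A5 and SLC25A4 differed by -0.04 (-0.14 to 0.06) and -0.02 (-0.12 to 0.08), with 8 and 7 of 9 sialyllactose arrays below the control median. SLC25A3 differed by -0.05 (-0.14 to 0.04), and its other tested probe set, at a mean of 2.08, by 0.02. Over 27 fits the difference of SLC25A6 ran from -0.08 to -0.03 and that of SLC25A3 from -0.07 to -0.01.

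SLC25A20, which brings acylcarnitines into mitochondria for fatty acid oxidation, had a lowest, median and highest signal of 3.41, 3.47 and 3.82 in control and 3.04, 3.38 and 3.67 with sialyllactose. Its 5 lowest values were all from the sialyllactose group, and its highest pair from control (difference -0.16, 95% interval -0.31 to 0.001, limma adjusted p = 0.779). SLC25A21, which carries oxodicarboxylates of lysine and tryptophan breakdown, had 5.20, 5.33 and 5.40 in control and 5.003, 5.21 and 5.36 with sialyllactose, with 8 of 9 sialyllactose arrays below the control median. Its difference was -0.10 (95% interval -0.21 to 0.004, limma adjusted p = 0.781). SLC25A39, required for glutathione import into mitochondria, was measured at 2.09 ± 0.15 and 2.21 ± 0.11 (SD, n = 9 each), a difference of 0.12 (95% interval -0.01 to 0.25).

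SLC25A30, a mitochondrial carrier protein first described in kidney, depended on control replicate 2. Its lowest, median and highest signals were 2.66, 2.88 and 4.13 in control and 2.87, 3.13 and 3.58 with sialyllactose. Control replicate 2 alone gave the 4.13, and the next control value was 3.07. With all arrays the difference was 0.16 (95% interval -0.14 to 0.47, limma adjusted p = 0.891). Without control replicate 2 it was 0.30 (95% interval 0.12 to 0.49), with an unadjusted p of 0.00227 and a limma adjusted p of 0.706, so the gene did not pass either way.

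The 6 tested genes of the SLC35 nucleotide sugar group split into 2 higher and 4 lower, with a median of -0.01 that was 0.003 with arrays centred on their medians and 0.001 with the quantile step repeated. SLC35C2 had means of 4.14 ± 0.15 and 4.05 ± 0.11 (SD, n = 9 each), the second with sialyllactose, and its other tested probe set had the opposite sign (-0.10 and 0.08). Without control replicate 2, its highest array, the SLC35C2 difference was -0.06 and its control mean 4.10. SLC35B3 differed by -0.02 (95% interval -0.16 to 0.11), and by -0.06 without control replicate 2. SLC35B1 differed by -0.0041 (95% interval -0.09 to 0.08), a sign that turned with either other scaling. The 18 tested carriers of other organic substrates split into 15 higher and 3 lower, with a median of 0.04 that was 0.002 over the 7 of them left by the 50% filter. The largest of the named ones was SLC6A8 at 4.79 ± 0.12 and 4.87 ± 0.11 (SD, n = 9 each), with 7 of 9 sialyllactose arrays above the control median (difference 0.08, 95% interval -0.04 to 0.20). SLC33A1 differed by 0.04 (-0.13 to 0.22), and by 0.0022 without control replicate 9. SLC35F5 differed by -0.01 (-0.16 to 0.13), a value that turned in sign with either other scaling and was -0.06 without control replicate 2. The non-carriers SLC9A3R1, SLC9A3R2 and SLC2A4RG differed by -0.04, 0.07 and 0.01.

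**Figure D3:**
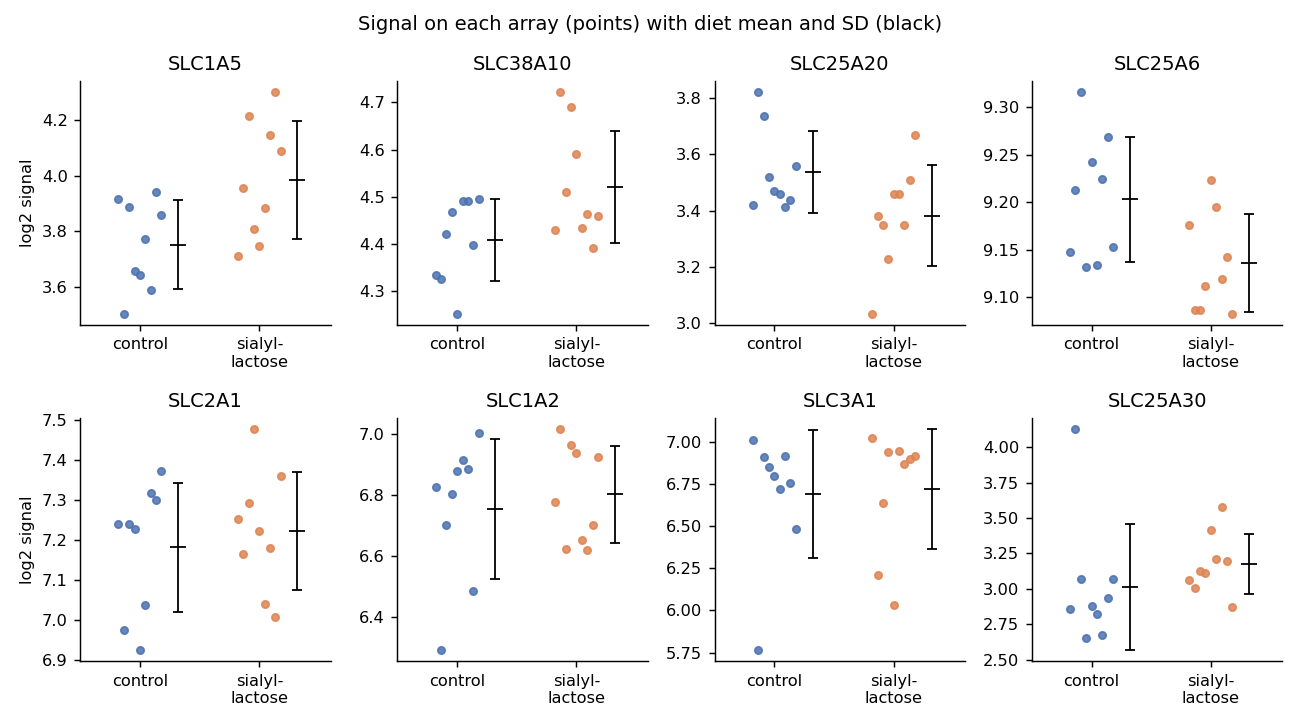
Log2 signal (vertical axes, each gene on its own scale) of 8 named solute carrier genes on the 9 control (blue) and 9 sialyllactose (orange) arrays, with the diet mean and SD in black. The diets overlap in each gene, and in SLC3A1 and SLC25A30 control replicate 2 lies away from the other control arrays, at 5.76 and 4.13.

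Partner genes that set the conditions for transport, from a list of 37, had 18 tested members, of which 6 had higher and 12 lower means and 0 passed (limma; 0 also at an unadjusted p under 0.05, where 6.30% of all probe sets lay). ATP1B1 and ATP1B3, subunits of the sodium and potassium pump, differed by 0.01 (95% interval -0.10 to 0.13) and -0.06 (-0.20 to 0.08). BSG, the chaperone that brings lactate carriers to the membrane, differed by 0.03 (-0.10 to 0.16). GLUL and GAD1, which turn glutamate into glutamine and into GABA, differed by -0.11 (-0.35 to 0.13) and -0.05 (-0.20 to 0.09). LDHB and HK1, of lactate and glucose metabolism, differed by -0.03 (-0.13 to 0.08) and -0.01 (-0.14 to 0.12). CA12, a carbonic anhydrase, and CA3, another, differed by 0.01 (-0.10 to 0.11) and -0.02 (-0.32 to 0.28), and OXSR1, a kinase of the chloride cotransporters, by -0.06 (-0.21 to 0.09).

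The third question was how much the carriers varied between retinas on the same diet. The SD within diets had a median of 0.156 over the 94 tested genes and also of 0.156 over all tested probe sets. It was smaller for brighter probe sets over most of the array, so each gene was also placed among the 501 tested probe sets of nearest mean signal. Of the 94 members, 38 lay above the median SD of such probe sets. Mitochondrial carriers had the lowest median SD of the substrate groups, 0.132, a value that takes no account of level. Of these carriers 5 of 20 were above the median SD of like level, while 10 of 14 amino acid carriers were (median SD 0.178). By that like-level count the nucleotide sugar group was the steadiest, with 0 of 6 above (median SD 0.140). These counts are descriptions, with no test.

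The steadiest of the bright genes were SLC25A6 with an SD of 0.059 (percentile 0.714 of all tested probe sets and 8.38 of those of like level), SLC35B1 with 0.066 (2.40 of like level) and SLC25A3 with 0.067 (16.2 of like level). The whole range of SLC25A6 over 18 retinas was 1.18-fold and that of SLC35B1 1.20-fold. SLC25A4 and SLC25A5 had SDs of 0.078 and 0.085 and ranges of 1.18-fold and 1.26-fold. Among less bright genes SLC25A14, at a mean of 3.44, had an SD of 0.060 (percentile 0.0 of those of like level). Its other tested probe set, at a mean of 2.72, had an SD of 0.235.

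The 6 genes with the largest SD were SLC3A1 (0.367), SLC25A30 (0.349), SLC5A4 (0.307), SLC35F6 (0.290), SLC16A3 (0.277) and SLC25A17 (0.264). Without control replicate 2 the SDs of SLC3A1 and SLC35F6 were 0.283 and 0.224, that of SLC25A30 was 0.190, and SLC5A4 (0.317), SLC16A3 (0.285) and SLC25A17 (0.269) were little changed. SLC5A4 then had the largest SD of the members. Control arrays had the larger SD in 57 of the 94 genes (62.6% of all tested probe sets), and in 42 without control replicate 2 (54.6% of all probe sets).

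SLC3A1 had a lowest, median and highest signal of 5.76, 6.80 and 7.01 in control and 6.03, 6.90 and 7.02 with sialyllactose, a range of 2.39-fold. Control replicate 2 (5.76) and sialyllactose replicates 5 (6.03) and 2 (6.21) were low, and the other 15 arrays lay at 6.48 or above. Its other tested probe set was much dimmer, with a mean of 1.90, and correlated with it at Pearson r = 0.531 (permutation p = 0.0231) but Spearman rho 0.253 (permutation p = 0.309). The diet difference of 0.03 (95% interval -0.29 to 0.35) was -0.08 without control replicate 2.

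SLC5A4 had 4.16, 4.86 and 5.19 as its lowest, median and highest signal in control and 4.35, 4.77 and 5.07 with sialyllactose. Control replicates 5 (4.16) and 3 (4.25) were the lowest, and control replicates 9 (5.19) and 4 (5.17) the highest, so control arrays held both ends. SLC25A17, which despite its family carries cofactors across the peroxisomal membrane, had 5.41, 5.80 and 6.05 in control and 5.001, 5.71 and 5.98 with sialyllactose. Sialyllactose replicate 3 was its lowest array, and without it the difference of -0.11 was -0.03. In SLC16A3 control arrays again held both ends, 2.17 on replicate 5 and 3.17 on replicate 9, while the sialyllactose arrays lay between 2.20 and 2.78.

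SLC35F6, a lysosomal and mitochondrial membrane protein of the SLC35 family, ran from 3.62 (control replicate 9) to 4.98 (control replicate 2), a range of 2.56-fold with both ends in control. Its diet difference was 0.002 (95% interval -0.26 to 0.26), and it was 0.09 without control replicate 2 and -0.08 without control replicate 9. Its other tested probe set, with a mean of 3.55, correlated with it at Pearson r = 0.617 (permutation p = 0.00726) and Spearman rho 0.439 (permutation p = 0.0689).

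**Figure D4:**
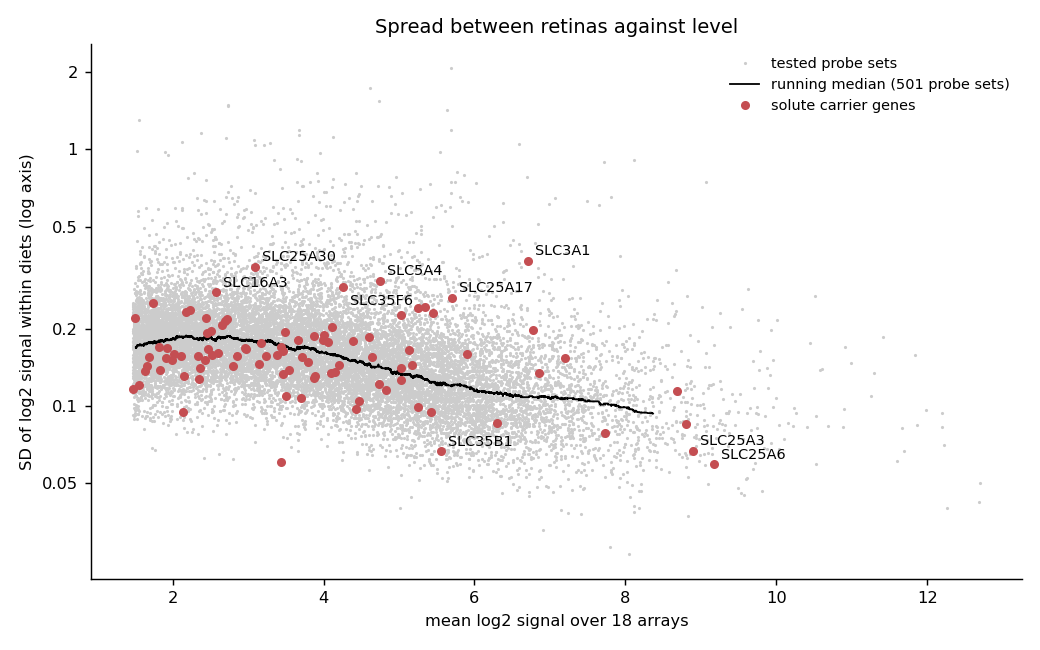
SD of log2 signal within diets (vertical log axis) against mean log2 signal over 18 arrays (horizontal axis) for all 16799 tested probe sets (grey), their running median over 501 probe sets (black line) and the 94 tested solute carrier genes (red). SLC3A1 and SLC25A30 had the largest SDs of the members, 0.367 and 0.349, and SLC25A6 lies low at 0.059.

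These 6 genes were set against the mean scores of the 10 cell type marker lists with at least 3 tested genes, as deviations from diet means over 18 arrays, which gave 60 pairs. After adjustment over the 60 pairs 0 passed for Pearson r and 0 for Spearman rho, and 4 had an unadjusted permutation p under 0.05 for r. The strongest was SLC5A4 with the Mueller glia score (9 genes), at Pearson r = 0.697 (permutation p = 0.00121, adjusted p = 0.0726) and Spearman rho 0.554 (permutation p = 0.0186, adjusted p = 0.558). It was 0.649 within control and 0.79 within sialyllactose, and 0.701 without control replicate 2. Without the 2 arrays farthest from the median of the score it was 0.798 (adjusted permutation p = 0.0174). SLC5A4 with the pigment epithelium score gave r = 0.591 (rho 0.269, adjusted permutation p = 0.267 for r and 0.964 for rho). That relation rested on a few arrays: it was 0.131 without the 2 farthest, and 0.86 within control but -0.101 within sialyllactose.

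The other pairs under that mark were SLC25A17 with the astrocyte score, at r = 0.576 (rho 0.3, adjusted permutation p = 0.267 for r and 0.964 for rho), and SLC25A30 with the endothelium and pericyte score, at r = -0.525 (rho -0.117, adjusted permutation p = 0.405 for r and 0.966 for rho). Within control and sialyllactose the first was 0.637 and 0.558 and the second -0.712 and -0.342. Without the 2 farthest arrays they were 0.102 and -0.287, so both rested on those arrays. Without control replicate 2 the first was 0.563 and the second -0.193.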

How the data were processed

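Affymetrix pig arrays measured retinal RNA, 9 arrays per diet. The deposited log2 values, 1 per probe set and array, were made with Affymetrix Expression Console and RMA, per the submitters' processing notes, with settings not given in the sources used here. RMA in general places all arrays on 1 distribution and shrinks differences of dim probe sets.

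Here 124 control probe sets and the dimmest 30% by mean over 18 arrays (7200) were left out. Symbols came from the platform annotation, and 118 of the 120 members had their gene identifier in a RefSeq gene table, with 0 symbols changed. Probe sets with several symbols (5 of this family) were not used. No sequence or coordinate is given, since the sources used here hold no sequence table and name no build.

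The difference, sialyllactose minus control, was fitted with limma 3.58.1 in R 4.3.3 on all 18 arrays and adjusted over 16799 probe sets at 0.05. On simulated data for this comparison (200 of 16799 probe sets changed) the fit recovered 44% at 1.19-fold, 90% at 1.41-fold and 98% at 2-fold. It recovered 84% at 0.707-fold. Noise was drawn independently for each probe set and array, so the simulation does not carry the distance of control replicate 2. Marker scores are means over a list of each gene's deviation from its mean, and correlations used 100000 permutations. Named were genes past the threshold, the 4 smallest p per direction, the 3 brightest per substrate group, the 6 largest SDs, key genes, and up to 2 partners per list. Any other gene was picked with its values in view. The members and lists were chosen with earlier results of these data known. SLC2A4RG was set apart as no carrier after the annotation was seen. The number of arrays limits the precision. Alternatives were other filters, scalings, priors and weights, gene means, a rank-sum test, a replicate block and leaving out each array.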

Additional observations from a re-analysis of the deposited data

Results flagged for a closer look

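In 6 of the 78 groups of 9 arrays examined for the 39 named genes, 1 array lay farther from its nearest neighbour than Dixon's 95% critical value (0.493 of the group's range) allows. Chance gives about 1 in 20 for genes chosen without regard to spread, but 6 of the named genes, SLC25A30 and SLC3A1 among them, were named for their large SD, so that rate does not apply to them. The values were SLC25A30 in control replicate 2 at 4.13 (next 3.07), SLC3A1 in control replicate 2 at 5.76 (next 6.48), SLC3A2 in control replicate 7 at 2.43 (next 2.80), SLC25A3 in control replicate 7 at 9.04 (next 8.94), SLC25A3 in sialyllactose replicate 1 at 8.68 (next 8.82) and SLC35B1 in control replicate 5 at 5.73 (next 5.59). In SLC25A3 and SLC35B1 the gaps were small in size, 1.28-fold and 1.20-fold being the whole range over 18 arrays.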

How the results depend on the processing

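No solute carrier gene passed at an adjusted p under 0.05 in any fit, at a threshold of 0.1 or in the exact rank-sum test. The count at an unadjusted p under 0.05 was 2 genes in the main fit. It was 4 with arrays centred on their medians, 1 with an intensity trend and robust prior and 8 of 120 without the filter on dim probe sets. It was 4 in the rank-sum test and 1 to 5 when single arrays were left out. The share of all probe sets at that mark is given only for the main fit (6.30%) and the rank-sum test (5.32%). For the other fits, the replicate block among them, whether the count was particular to these genes was not tested. Of the 39 named genes 6 turned in sign under some setting other than leaving out an array. With arrays centred and with quantile normalization again, SLC1A3 was at 0.0162 and 0.0183, SLC35B1 at 0.0135 and 0.0140, and SLC35F5 at 0.0037 and 0.0049. With gene means over probe sets SLC35F6 was at -0.0026 and SLC38A1 at -0.042, and with array quality weights SLC3A1 was at -0.055. Leaving out single arrays turned 9 genes in some fits, with ranges of -0.092 to 0.032 for SLC16A3, -0.011 to 0.078 for SLC1A2, -0.065 to 0.037 for SLC1A3, -0.028 to 0.054 for SLC2A4RG, -0.014 to 0.018 for SLC35B1, -0.062 to 0.012 for SLC35F5, -0.077 to 0.093 for SLC35F6, -0.093 to 0.0055 for SLC37A4 and -0.085 to 0.117 for SLC3A1. Group medians moved by more than the SD between arrays, within diets, of the group's median deviation in 3 cases, to -0.04 for ion carriers and 0.002 for other organic substrates with the 50% filter, which leaves fewer genes, and to -0.06 for the nucleotide sugar group without the filter. The glucose or lactate median turned from 0.03 to -0.04 with the 50% filter, within that spread. The count of correlations passing, 0 of 60, was 1 without the 2 arrays farthest from the score's median. Omitting control replicate 2, an alternative chosen after seeing the data, left it at 0 (4 at an unadjusted p under 0.05 with all arrays). The replicate number was also fitted as a replicate block and gave 3 genes at an unadjusted p under 0.05 and 0 after adjustment. The deviations of same-numbered arrays of the diets had correlations of -0.113 to 0.164 over 9 pairs, 3 of them over 0.1. These were not set against pairs of different number, so whether same-numbered arrays deviate together was not tested. The causes of these changes were not tested.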
